A study of Rattus norvegicus with 10 samples.

Results

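Libraries taken 34 days after the start of placebo (PLA_34d) were set against those taken 1 h after it (PLA_1h), with 2 libraries a group. All came from female Wistar rats in which arthritis had been induced with bovine type II collagen in Freund's adjuvant, followed by a booster, as a model of rheumatoid arthritis. The tissue is labelled as muscle lying under the epidermis and was cut from around the points used for acupuncture. It was taken when the rats were killed, so the times come from different rats. Placebo was a weekly peritoneal injection of sterile saline that began when arthritis was declared, all rats were shaved, and blood was drawn under ether. The age of the rats and the time of day are not given in the sources used here. The times differ in age, in the course of the arthritis, in the number of injections and in the time since the last of them, and these cannot be told apart. The whole series holds 10 libraries in 5 groups, the others being arthritic rats before therapy (RA_0) and rats under acupuncture at the same times (AP_1h and AP_34d). A transcript was a member when it reached at least 1 CPM in both libraries of PLA_1h or in both of PLA_34d, where CPM is the deposited unit, read counts scaled by library size with the TMM factors of edgeR. This held for 9975 of the 17221 transcripts in the table, which carry 9847 symbols. Of the members, 9393 passed in both groups, 353 through PLA_34d only and 229 through PLA_1h only. Separate animals are not stated for the libraries of a group, so a p measures only the spread between these libraries, which may be technical.

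Skeletal muscle is built of slow and fast fibres with their own forms of myosin and troponin, and its makeup differs from muscle to muscle. Acetylcholine receptors are gathered under the nerve ending in innervated fibres, while fibres that have lost their nerve, or are being rebuilt, also switch on receptor genes and the myogenic factors away from it. Muscle further adjusts protein breakdown, fuel use and metallothionein genes to fasting and to glucocorticoid hormones, and it carries a circadian clock. Tissue beneath the skin also holds fat, vessels and lymph nodes. In a lymph node, lymphocytes enter through specialised vessels.

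The placebo libraries held 6817140 to 8899521 counted reads, so that 1 CPM stood for 5.70 to 10.1 reads, while a level of 0 leaves room for 0.297 to 0.526 CPM (3 reads per library, counting error only). Muscle genes led in all 4. Alpha actin of skeletal muscle (Acta1) stood at 37333 and 118120 CPM at 1 h and 44268 and 92680 CPM at 34 days. Muscle creatine kinase (Ckm) stood at 20830 and 51430 CPM at 1 h and 16181 and 40609 CPM at 34 days. The 7 genes of muscle identity in the table summed to 99808 and 232100 CPM at 1 h and 87009 and 185850 CPM at 34 days, so the replicates of each group differed from each other by more than the groups did. In bulk tissue, fewer cells of a type and less RNA per cell cannot be told apart.

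The libraries of a group were no closer to each other than to those of the other time. The median absolute difference over the members, on the log2(CPM + 1) scale, was 0.42 between the PLA_1h libraries and 0.44 between the PLA_34d libraries. Across the times it ran from 0.29, between replicate 2 of each group, to 0.57, between PLA_1h replicate 2 and PLA_34d replicate 1, and 24.6% of the members differed at least 2-fold in that last pair. The first principal component held 67.1% of the variance of the 4 libraries. PLA_34d replicate 1 lay at -60.9 on it, PLA_1h replicate 1 at -0.25, PLA_34d replicate 2 at 21.7 and PLA_1h replicate 2 at 39.5, so the component set PLA_34d replicate 1 apart and did not separate the times. For this reason each PLA_34d library is also given apart, as its difference from the PLA_1h mean.

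At least 2-fold from the PLA_1h mean were 1340 members (13.4%) in PLA_34d replicate 1, 959 above (9.61%) and 381 below (3.82%). In replicate 2 they were 277 (2.78%), 80 above (0.802%) and 197 below (1.97%). Only 93 members (0.932%) were 2-fold away in the same direction in both libraries, 27 above (0.271%) and 66 below (0.662%), and 19 (0.19%) went opposite ways. Most of what the PLA_34d libraries shared therefore lay below the 1 h level. The 2 differences use the same PLA_1h mean, so agreement between them is in part built in.

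**Figure D1:**
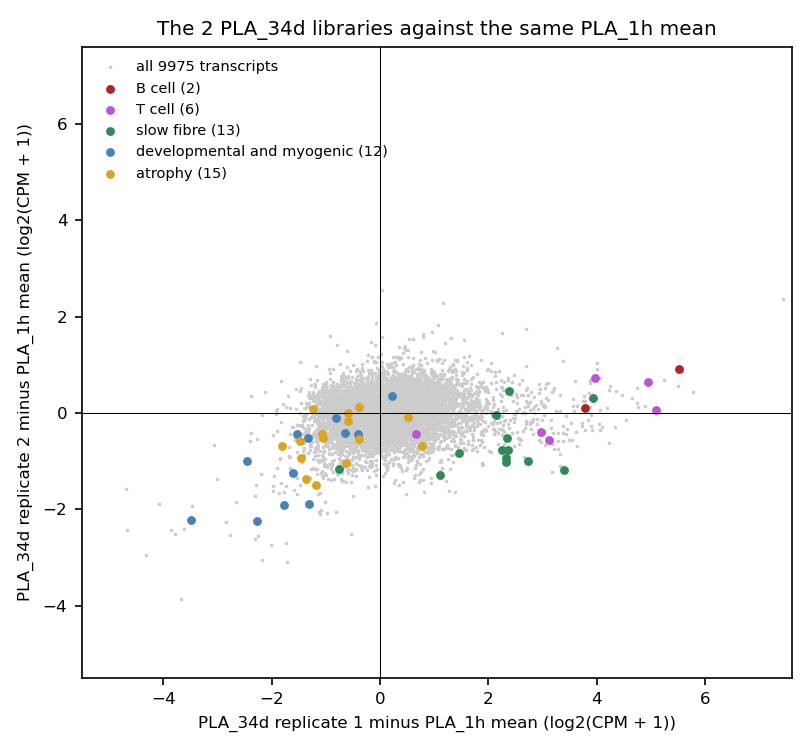
Each point is a transcript, with its difference from the PLA_1h mean in PLA_34d replicate 1 (x axis) and replicate 2 (y axis), both on log2(CPM + 1). B cell, T cell and most slow fibre transcripts lie to the right, mostly near or below 0 on the y axis, while developmental and most atrophy transcripts lie at the lower left. Both axes use the same PLA_1h mean.

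No member passed the test between the times. limma, fitted to all 10 libraries, called 0 of the 9975 at a Benjamini-Hochberg adjusted p under 0.05 (smallest adjusted p 0.999). Without adjustment 298 (2.99%) had a p under 0.05, 174 of them higher (1.74%) and 124 lower (1.24%) at 34 days, which is fewer than the 498.75 that 5% of 9975 come to. The same 0 came from limma-voom (276 unadjusted) and from the quasi-likelihood test of edgeR (450 unadjusted), whereas DESeq2 called 31 (487 unadjusted), 20 higher and 11 lower. Of those 20, 18 stood at least 4-fold above the other 3 placebo libraries in PLA_34d replicate 1. By the study's rule, an unadjusted p under 0.05 has to go with a 2-fold difference or more and with 1 CPM or more on average. It was met by 210 members (2.11%), 132 higher (1.32%) and 78 lower (0.782%), and of these 121 (1.21%) and 77 (0.772%) had groups that did not overlap. Over all members, groups that did not overlap were found for 2747 (27.5%), 1275 higher (12.8%) and 1472 lower (14.8%). No permutation p is given per gene, because the smallest exact value for such small groups is 0.333. Since no member passed, "higher" and "lower" describe levels in these libraries and stand for no call.

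The count rested on single libraries. With PLA_34d replicate 1 as the lone 34 day library limma called 143 members, 140 of them higher, and 124 of the 143 were at least 4-fold above the other 3 placebo libraries in replicate 1. With PLA_34d replicate 2 alone it called 0 (105 unadjusted), and 95 met the study's rule, 28 higher and 67 lower. The rule was met by 874 without PLA_34d replicate 2 and by 132 without PLA_1h replicate 2. In such fits the lone library takes its spread from the other groups.

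Of the 10 members named as higher at 34 days, by the smallest p among those that met the study's rule without overlap, none passed limma. Dgkz (NM_031143, chromosome 3, 76312721 to 76342603 in rn4) encodes the zeta form of diacylglycerol kinase, which turns the second messenger diacylglycerol into phosphatidic acid. It stood at 43.6 and 33.7 CPM at 1 h and 114 and 111 CPM at 34 days, a log2 difference of 1.53 ± 0.30 (SE). Its 34 day libraries were nearly level with each other. Glycam1 (NM_012794, chromosome 7, 142455642 to 142457902), a mucin on the vessels of lymph nodes, had no read in either PLA_1h library and stood at 172 and 4.12 CPM in the PLA_34d libraries. Against the floor of 3 reads per library this is at least 327-fold higher in replicate 1 and at least 7.83-fold higher in replicate 2. Glycam1, Arap2 and RT1-DOa became members through PLA_34d only, where they stand high, so that for them the filter itself called for a difference.

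The other 8 higher members all stood higher in PLA_34d replicate 1 than in replicate 2. Tbc1d10c, a brake on calcineurin in lymphocytes, stood at 6.54 and 22.3 CPM at 1 h and 61.8 and 41.1 CPM at 34 days. RT1-DOa, a class II chain that tunes peptide loading in B cells, stood at 1.19 and 0.526 CPM at 1 h and 17.9 and 2.84 CPM at 34 days. Rasgrp2, which activates the small GTPase Rap, stood at 6.54 and 6.32 CPM at 1 h and 35.4 and 10.7 CPM at 34 days. In RT1-DOa and Rasgrp2 the second 34 day library lay only a few CPM above the 1 h libraries. Cish, an inhibitor of cytokine signalling that STAT5 induces, stood at 8.92 and 4.91 CPM at 1 h and 48.5 and 24.7 CPM at 34 days. Wee1, a kinase that holds back mitosis, stood at 13.1 and 18.3 CPM at 1 h and 40.9 and 29.7 CPM at 34 days. Both 34 day libraries lay well above both 1 h libraries in Cish and Wee1. Arhgap27 (1.29 and 1.05 against 19.97 and 4.55 CPM) and Arap2 (1.39 and 0.702 against 12.1 and 2.99 CPM) encode regulators of small GTPases, as does Agap2 (7.43 and 6.14 against 25.8 and 12.7 CPM). Their log2 differences were 2.31, 1.84 and 1.30. All 3 stood highest in PLA_34d replicate 1.

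The 10 members named as lower at 34 days lay below both PLA_1h libraries in both PLA_34d libraries, as their choice without overlap required. None of them passed limma. Ucp3 (NM_013167, chromosome 1, 157896001 to 157909609), the uncoupling protein of muscle mitochondria, stood at 403 and 399 CPM at 1 h and 28.3 and 69.7 CPM at 34 days, a log2 difference of -3.14 ± 0.58 (SE). The 1 h libraries were level with each other, and both 34 day libraries lay far below them. Dclk1 (NM_021584, chromosome 2, 144678212 to 144687350), a doublecortin-like kinase that binds microtubules, stood at 531 and 41.2 CPM at 1 h and 10.8 and 9.24 CPM at 34 days. Its other transcript (NM_053343) stood at 52.6 and 5.97 CPM at 1 h and 4.82 and 1.99 CPM at 34 days, and the split of reads between the overlapping transcripts is uncertain. Much of the gap for Dclk1 lay in PLA_1h replicate 1, which stood at the top for both transcripts.

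Ppp1r14c, an inhibitor of protein phosphatase 1, stood at 107 and 34.7 CPM at 1 h and 2.69 and 15.8 CPM at 34 days. Map1a, which binds microtubules, stood at 222 and 335 CPM at 1 h and 126 and 86.0 CPM at 34 days, and Farsb, a subunit of the enzyme that charges tRNA with phenylalanine, at 96.5 and 66.5 CPM at 1 h and 35.3 and 35.3 CPM at 34 days. The 34 day libraries of Farsb were level with each other. Prrt4 stood at 14.9 and 45.8 CPM at 1 h and 2.80 and 4.69 CPM at 34 days and Sec1, a fucosyltransferase gene, at 13.98 and 5.62 CPM at 1 h and 1.01 and 1.99 CPM at 34 days. In each of these genes both 34 day libraries lay below both 1 h libraries, as the choice required. DESeq2 called Dgkz, Arhgap27, RT1-DOa, Ucp3, Prrt4, Prima1, Map1a, Chrna1, Ppp1r14c and Dclk1 among the 20 named members, with adjusted p from 4.46e-05 for Dclk1. Across the alternatives the highest adjusted p was 1 for each of the 20.

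**Figure D2:**
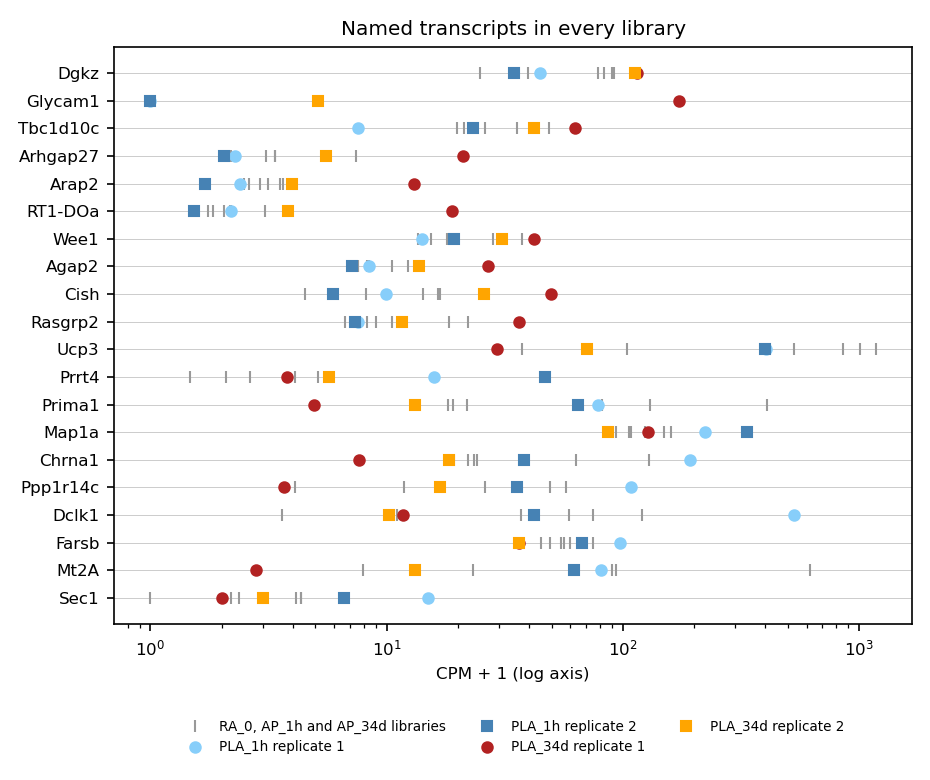
CPM + 1 on a log axis for the 20 named transcripts, 10 higher above and 10 lower below. Coloured points are the 4 placebo libraries (circle replicate 1, square replicate 2) and grey ticks the other 6 libraries. For the genes in the upper part PLA_34d replicate 1 is mostly far above replicate 2. By the choice without overlap, both PLA_34d libraries lie above both PLA_1h libraries in the upper part and below them in the lower part.

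Of the 5 subunits of the muscle acetylcholine receptor, Chrna1, Chrnd and Chrng stood far lower at 34 days, Chrnb1 less so, and Chrne overlapped. Of the 13 endplate genes with reads, a list written after values had been seen, 6 were lower and 3 higher without overlap, against 14.8% and 12.8% of all members. Chrna1 (NM_024485, chromosome 3, 56087756 to 56102821), the alpha subunit that binds acetylcholine, stood at 192 and 37.03 CPM at 1 h and 6.62 and 17.3 CPM at 34 days, a log2 difference of -2.86 ± 0.69 (SE). Chrnd, the delta subunit, stood at 189 and 24.2 CPM at 1 h and 16.3 and 9.38 CPM at 34 days. Chrng, the gamma subunit of the fetal receptor, stood at 24.2 and 1.58 CPM at 1 h and 0.673 and 0.711 CPM at 34 days. In all 3 the PLA_1h libraries differed strongly between themselves, replicate 1 standing far above replicate 2, and both 34 day libraries lay below. Chrng became a member through PLA_1h only. Chrnb1, the beta subunit, stood at 129 and 130.2 CPM at 1 h and 66.5 and 114 CPM at 34 days. Chrne, which replaces gamma in the adult receptor, stood at 31.4 and 22.1 CPM at 1 h and 19.5 and 38.8 CPM at 34 days, with overlap between the groups. Chrne is uncertain, since it shares its locus with another symbol of the table.

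The other endplate genes did not move as a block. Prima1 (NM_001108721, chromosome 6, 127473127 to 127524588), which anchors acetylcholinesterase in the membrane, stood at 77.3 and 63.7 CPM at 1 h and 3.93 and 12.2 CPM at 34 days, a log2 difference of -3.14 ± 0.73 (SE). Musk, the kinase that receives the agrin signal, stood at 20.9 and 5.09 CPM at 1 h and 5.16 and 4.12 CPM at 34 days, and Lrp4, the agrin receptor, at 49.4 and 25.6 CPM at 1 h and 24.3 and 24.3 CPM at 34 days. Only PLA_1h replicate 1 stood out in Musk. Dok7, an activator of Musk, stood at 34.99 and 42.1 CPM at 1 h and 35.3 and 56.4 CPM at 34 days and Rapsn, which clusters the receptors, at 28.2 and 33.2 CPM at 1 h and 16.7 and 32.3 CPM at 34 days. Neither shows a gap between the times. Utrn, a relative of dystrophin, stood at 25.7 and 18.4 CPM at 1 h and 59.6 and 30.6 CPM at 34 days. Agrn, the clustering signal itself, stood at 29.6 and 23.3 CPM at 1 h and 32.5 and 40.9 CPM at 34 days, and Colq, the collagen tail of acetylcholinesterase, at 4.16 and 2.11 CPM at 1 h and 9.76 and 5.54 CPM at 34 days. These last 3 stood higher in both 34 day libraries. Over the 13 genes the median log2 difference was -0.53, with -0.83 in replicate 1 and -0.19 in replicate 2, where all transcripts with reads had 0.03, 0.07 and -0.01. Since the list was written for the values of Chrna1, Chrnd and Chrng, no support is read from its counts.

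**Figure D3:**
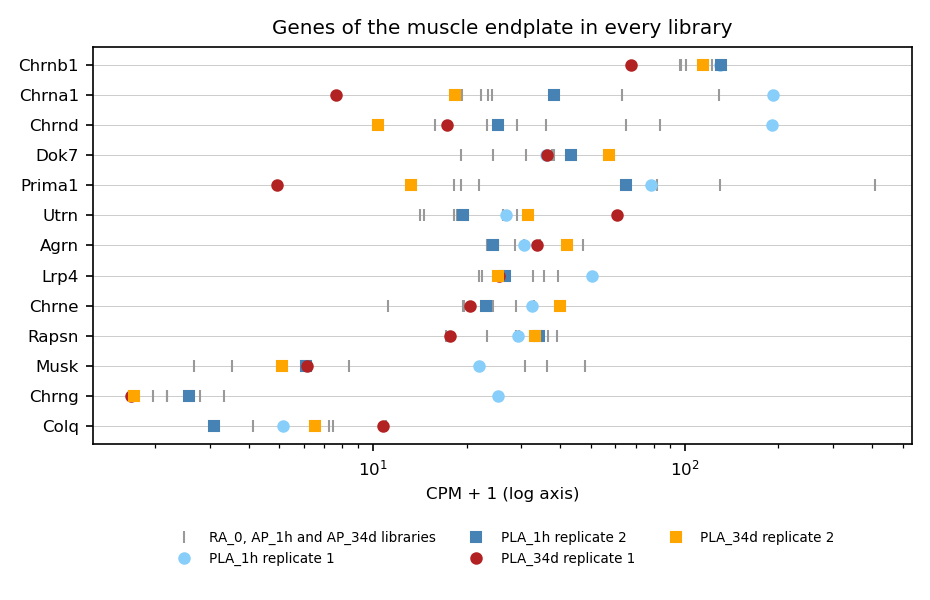
CPM + 1 on a log axis for 13 endplate genes, ordered by mean level. Coloured points are the 4 placebo libraries and grey ticks the other 6 libraries. PLA_1h replicate 1 stands alone on the right for Chrna1, Chrnd and Chrng, with both PLA_34d libraries below both PLA_1h libraries there.

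The stretch upstream of these receptor genes is shown because muscle transcription factors of the MyoD family, among them myogenin, bind E-boxes there. The 250 bases before the annotated start were taken from RefSeq (GRCr8) for all 5 subunit genes and searched on both strands for the E-box CAGCTG, which 12% of all 33469 promoters of that length hold. The E-box CAGGTG was searched in the same way and is held by 15.9%. No match overlaps another, and in Chrnd the match is on the opposite strand, so that the capitals show its reverse complement. Matches are in capitals, each sequence runs 5′ to 3′ on the strand of its gene, and its last base is the base before the start.
Chrna1: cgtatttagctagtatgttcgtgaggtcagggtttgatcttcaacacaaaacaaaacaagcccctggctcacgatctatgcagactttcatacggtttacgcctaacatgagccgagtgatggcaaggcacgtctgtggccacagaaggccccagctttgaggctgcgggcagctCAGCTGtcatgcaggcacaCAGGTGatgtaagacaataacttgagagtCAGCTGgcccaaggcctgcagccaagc
Chrnb1: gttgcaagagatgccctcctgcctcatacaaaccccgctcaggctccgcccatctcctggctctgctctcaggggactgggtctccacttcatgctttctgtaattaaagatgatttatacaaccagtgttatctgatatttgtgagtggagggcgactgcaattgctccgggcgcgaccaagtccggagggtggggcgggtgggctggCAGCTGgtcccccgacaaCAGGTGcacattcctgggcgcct
Chrnd: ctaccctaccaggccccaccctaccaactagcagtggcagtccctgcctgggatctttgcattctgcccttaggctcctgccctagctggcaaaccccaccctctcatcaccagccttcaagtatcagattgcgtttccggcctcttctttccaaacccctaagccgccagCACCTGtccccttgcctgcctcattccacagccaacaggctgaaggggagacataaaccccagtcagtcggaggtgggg
Chrne: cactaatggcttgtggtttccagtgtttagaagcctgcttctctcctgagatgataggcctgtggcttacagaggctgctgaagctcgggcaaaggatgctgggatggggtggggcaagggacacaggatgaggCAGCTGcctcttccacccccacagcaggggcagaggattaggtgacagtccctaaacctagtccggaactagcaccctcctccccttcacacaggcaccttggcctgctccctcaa
Chrng: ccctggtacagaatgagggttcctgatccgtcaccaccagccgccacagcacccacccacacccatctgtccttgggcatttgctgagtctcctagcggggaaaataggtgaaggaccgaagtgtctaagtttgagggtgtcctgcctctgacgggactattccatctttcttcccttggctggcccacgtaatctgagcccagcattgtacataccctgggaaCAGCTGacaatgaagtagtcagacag
They lie at chr3:78877354-78877603, minus strand (Chrna1), chr10:55015108-55015357, minus strand (Chrnb1), chr9:95310066-95310315, plus strand (Chrnd), chr10:55834155-55834404, minus strand (Chrne) and chr9:95325734-95325983, plus strand (Chrng). Chrna1 held 3 matches, Chrnb1 2 and each of the others 1. The match nearest to the start began 27 bases before it in Chrna1, 23 in Chrnb1, 79 in Chrnd, 116 in Chrne and 26 in Chrng. Subunits that stood lower at 34 days and Chrne, whose groups overlapped, both held matches. A match is a run of letters and says nothing on binding in these rats.

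Of 12 myogenic and developmental members, 9 were lower and 0 higher without overlap (14.8% and 12.8% of all members), 0 passed limma and 5 met the study's rule as lower (0.782% of all members). Chrna1 and Chrng, described above, are among the 9. The list was written with earlier results of these data known, so no support is read from its counts. The median over 13 transcripts with reads was -0.98, with -1.33 in replicate 1 and -0.53 in replicate 2. The 7 genes of muscle identity had -0.47, with -0.72 in replicate 1 and 0.20 in replicate 2. Myf6, a myogenic factor of mature fibres, stood at 407 and 248 CPM at 1 h and 109 and 235 CPM at 34 days. Gadd45a, which stands high in muscle without its nerve, stood at 355 and 107 CPM at 1 h and 34.8 and 96.8 CPM at 34 days. Myh3, embryonic myosin, stood at 270.3 and 234 CPM at 1 h and 160.1 and 188 CPM at 34 days. In all 3 both 34 day libraries lay below both 1 h libraries, though in Myf6 and Gadd45a replicate 2 came close to the lower 1 h library. Myh8, perinatal myosin, overlapped, with 1367 and 1811 against 901 and 1466 CPM.

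The remaining genes of this list were singled out after their values had been seen. Myogenin (Myog) stood at 179 and 54.1 CPM at 1 h and 31.9 and 40.8 CPM at 34 days and Ncam1, an adhesion molecule of developing muscle, at 112 and 61.2 CPM at 1 h and 32.98 and 21.5 CPM at 34 days. Runx1, a transcription factor that denervated muscle turns on, stood at 30.2 and 11.6 CPM at 1 h and 4.82 and 4.26 CPM at 34 days. Without overlap all 3 were lower, by log2 differences of -1.43, -1.60 and -1.84. Myod1, the factor that founds the muscle lineage (117 and 163 against 104 and 101 CPM), had a log2 difference of -0.42 ± 0.66 (SE), smaller than its error. The satellite cell factor Pax7 (1.39 and 0.702 against 1.35 and 1.56 CPM) overlapped.

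Of the 15 atrophy transcripts, genes of muscle protein breakdown, 9 were lower and 0 higher without overlap (14.8% and 12.8% of all members). The study's rule was met by 2 as lower (0.782% of all members), and 0 passed limma. This list too was written with earlier results of these data known, so no support is read from its counts. The median of the 15 transcripts was -0.76, -1.05 in replicate 1 and -0.54 in replicate 2, where the muscle identity genes had -0.47, -0.72 and 0.20. Sqstm1, the autophagy receptor p62, stood at 747 and 1121 CPM at 1 h and 440.2 and 635 CPM at 34 days. Trim63, the ubiquitin ligase MuRF1, stood at 468 and 646 CPM at 1 h and 196 and 364 CPM at 34 days, and Bnip3, a mitophagy receptor, at 434 and 437 CPM at 1 h and 288 and 389.6 CPM at 34 days. The groups did not overlap in any of these 3. Foxo4, a transcription factor of the atrophy program, overlapped, with 324 and 420.5 against 282 and 401 CPM.

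Singled out after their values had been seen were Ctsl1, the lysosomal protease cathepsin L (348 and 412 against 107 and 234 CPM), and Fbxo32, the ligase atrogin-1 (78.9 and 93.01 against 37.1 and 29.9 CPM). Fbxo31, another F-box protein, stood at 12.1 and 18.3 CPM at 1 h and 5.16 and 5.12 CPM at 34 days. Tnfrsf12a, the receptor of TWEAK, stood at 16.9 and 22.99 CPM at 1 h and 6.51 and 9.81 CPM at 34 days. All 4 were lower in both 34 day libraries. Of the 38 proteasome members 14 were lower and 1 higher without overlap (14.8% and 12.8% of all members), with a median over 40 transcripts of -0.49, and of the 93 ribosomal protein members 22 were lower and 4 higher, nearer to those shares, with a median of -0.24. The heat shock list had 5 of 15 lower and 0 higher, against the same shares. Hsp90ab1 stood at 2155 and 2364 CPM at 1 h and 1337 and 1451 CPM at 34 days, while Cryab (1940 and 4302 against 2582 and 2220 CPM), Hspb6 (1596 and 3499 against 2518 and 2870 CPM) and Hspb7 (552 and 848 against 925 and 499.9 CPM) overlapped. Hsph1, a partner of Hsp70 singled out after its values had been seen, stood at 129.6 and 124 CPM at 1 h and 57.7 and 61.8 CPM at 34 days.

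Both metallothioneins stood far lower at 34 days. They are small proteins that bind zinc and copper and are induced by metals and by glucocorticoids. Mt2A (NM_001137564, chromosome 19, 11267811 to 11268585) stood at 80.2 and 61.2 CPM at 1 h and 1.79 and 12.2 CPM at 34 days, a log2 difference of -3.55 ± 0.91 (SE). Mt1a, singled out after its values had been seen, stood at 68.5 and 32.3 CPM at 1 h and 2.92 and 8.10 CPM at 34 days, a log2 difference of -3.01 ± 0.94 (SE). Both genes were low in both 34 day libraries and lowest in replicate 1. For Mt2A the acupuncture libraries stood at 618 and 88.9 CPM at 1 h and 63.7 and 93.1 CPM at 34 days, and the RA_0 libraries at 6.92 and 22.3 CPM.

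The 250 bases before the start of both genes are shown because metal response elements, bound by the zinc sensor MTF1, stand there. They were taken from RefSeq (GRCr8, where Mt1a is listed as Mt1) and searched on both strands for TGCGCNC, a form of the core of that element. It is found in 11.8% of all 33469 promoters of that length and is in capitals, as its reverse complement where it lies on the opposite strand.
Mt1: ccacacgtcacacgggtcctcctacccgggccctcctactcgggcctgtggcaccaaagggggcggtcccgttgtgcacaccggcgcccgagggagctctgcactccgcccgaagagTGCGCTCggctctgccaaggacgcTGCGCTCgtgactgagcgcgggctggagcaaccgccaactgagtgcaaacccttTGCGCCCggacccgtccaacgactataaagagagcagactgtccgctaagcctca
Mt2A: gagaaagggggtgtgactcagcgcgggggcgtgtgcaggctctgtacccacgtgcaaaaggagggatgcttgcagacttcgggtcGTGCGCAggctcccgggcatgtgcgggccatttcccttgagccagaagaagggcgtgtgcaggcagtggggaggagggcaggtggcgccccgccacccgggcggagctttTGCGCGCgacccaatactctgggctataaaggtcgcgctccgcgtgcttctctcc
They lie at chr19:10832976-10833225, minus strand (Mt1) and chr19:10838709-10838958, minus strand (Mt2A). Mt1 held 3 matches, beginning 133, 109 and 55 bases before the start. Mt2A held 2, 165 bases (on the opposite strand) and 55 bases before it. The nearest match thus begins at the same distance in both.

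Other targets of glucocorticoids were split. Of the 14 members of that list, which holds the metallothioneins, 6 were lower and 2 higher without overlap (14.8% and 12.8% of all members). None passed limma, and 3 met the study's rule as lower (0.782% of all members). The median over 16 transcripts with reads was -0.28. Tsc22d3, the leucine zipper protein GILZ, stood at 357 and 338 CPM at 1 h and 209 and 223 CPM at 34 days. Fkbp5, a cochaperone of the glucocorticoid receptor, stood at 108 and 154 CPM at 1 h and 36.9 and 40.9 CPM at 34 days, a log2 difference of -1.71 ± 0.50 (SE). Both were lower in both 34 day libraries. Klf9 (247 and 149 against 158 and 219 CPM) and Errfi1 (118 and 77.04 against 56.3 and 104 CPM) overlapped. The higher members, singled out after their values had been seen, were Per1 and Ddit4. Per1, a clock gene that the receptor also drives, stood at 48.3 and 68.6 CPM at 1 h and 96.7 and 124 CPM at 34 days. Ddit4, an inhibitor of mTOR signalling, stood at 46.9 and 55.1 CPM at 1 h and 55.6 and 103 CPM at 34 days. In Ddit4 PLA_34d replicate 1 was nearly level with the higher 1 h library, and only replicate 2 stood clearly above.

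Genes of fasting and fatty acid use were lower in part. Of 21 members 7 were lower and 1 higher without overlap (14.8% and 12.8% of all members). None passed limma, and 1, Ucp3, met the study's rule as lower (0.782% of all members). The median was -0.24, -0.53 in replicate 1 and -0.15 in replicate 2. The genes of fatty acid oxidation with the highest levels overlapped between the times. Acadm, a dehydrogenase of medium chains, stood at 627 and 939 CPM at 1 h and 501 and 1022 CPM at 34 days. Cpt1b, which brings fatty acids into mitochondria, stood at 364 and 426 CPM at 1 h and 354 and 476 CPM at 34 days, and Hadha, of the trifunctional protein, at 316 and 577 CPM at 1 h and 238 and 450.5 CPM at 34 days. Pdk4, the kinase that shuts glucose out of the mitochondrion in fasting, stood at 526 and 443 CPM at 1 h and 92.4 and 363 CPM at 34 days. Here PLA_34d replicate 2 lay only a little below the 1 h libraries, and replicate 1 lay far below. Plin2, a coat protein of lipid droplets singled out after its values had been seen, stood at 66.2 and 32.3 CPM at 1 h and 30.5 and 20.04 CPM at 34 days.

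In the phase of the clock gene Dbp, 4 of 8 members were higher and 1 lower without overlap (12.8% and 14.8% of all members), and 0 passed limma. Dbp, a transcription factor driven by the clock, stood at 137 and 181 CPM at 1 h and 249 and 295 CPM at 34 days. The repressors Per1, Per2 and Per3 followed, Per1 with the values above, Per2 at 36.2 and 45.5 CPM at 1 h and 68.7 and 68.4 CPM at 34 days and Per3 at 40.9 and 25.1 CPM at 1 h and 67.9 and 69.7 CPM at 34 days. In all 4 both 34 day libraries lay above both 1 h libraries. The lower member was Nr1d1 (23.2 and 21.6 against 15.6 and 11.4 CPM), which shares its locus with another symbol and is uncertain. Tef (308 and 432 against 316 and 452 CPM) and Bhlhe40 (189 and 141 against 213 and 139 CPM) overlapped. Of the 6 members in the opposite phase 1 was lower and 0 higher. This was Arntl, the activator BMAL1, which stood at 17.2 and 14.2 CPM at 1 h and 7.07 and 5.69 CPM at 34 days, a log2 difference of -1.18 ± 0.33 (SE). Nfil3 (19.8 and 26.9 against 17.6 and 29.0 CPM), Cry1 (11.9 and 18.1 against 14.5 and 14.5 CPM) and Clock (11.9 and 6.67 against 9.87 and 8.10 CPM) overlapped. Per2, Per3 and Nr1d1 were singled out after their values had been seen. The time of day of sampling is not given in the sources used here, and its part was not tested.

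What set PLA_34d replicate 1 apart was led by genes of lymphocytes and lymph nodes. Of all 17221 transcripts, 325 stood at least 4-fold above the other 3 placebo libraries in it, 166 of them members, and 224 stood at least 4-fold above all other 9 libraries. In the 9 other libraries the count of transcripts 4-fold above all the rest was between 0 and 6. Ms4a1, the B cell antigen CD20, stood at 0.0991 and 0.175 CPM at 1 h and 50.8 and 1.14 CPM at 34 days. Il21r, the receptor of interleukin 21, stood at 1.69 and 0.526 CPM at 1 h and 75.8 and 2.27 CPM at 34 days. PLA_34d replicate 2 lay above both 1 h libraries in both genes, but only by a few CPM or less. For Ms4a1 the 1 h values lay below the floor of 3 reads, so a ratio to them is uncertain. Coro1a, an actin regulator of leukocytes, stood at 6.05 and 4.21 CPM at 1 h and 178 and 5.69 CPM at 34 days. Tnfrsf14, the receptor HVEM, stood at 2.48 and 0.175 CPM at 1 h and 90.6 and 1.99 CPM at 34 days and Rac2, a GTPase of blood cells, at 3.87 and 3.33 CPM at 1 h and 105 and 3.13 CPM at 34 days. Acap1, a regulator of Arf6, stood at 1.98 and 1.05 CPM at 1 h and 65.8 and 1.71 CPM at 34 days. In Coro1a, Tnfrsf14, Rac2 and Acap1 only PLA_34d replicate 1 was high.

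The marker lists of B cells, T cells and lymph node moved with that library. The B cell list summed to 11.9 and 4.21 CPM at 1 h and 564 and 9.24 CPM at 34 days, where the 6 other libraries held 3.59 to 20.01 CPM, and replicate 1 was the highest of 10 libraries in 13 of 13 transcripts. Cr2, the complement receptor CD21 of B cells and follicular dendritic cells, stood at 0.198 and 0.351 CPM at 1 h and 91.4 and 0.711 CPM at 34 days. Cd79b, a chain of the B cell receptor complex, stood at 0.198 and 0.526 CPM at 1 h and 72.02 and 0.853 CPM at 34 days. Outside replicate 1 both were under 1 CPM in the placebo libraries. Cd22 (0.793 and 0.175 against 70.8 and 0.426 CPM) showed the same order, with 1 high library. The T cell list summed to 26.8 and 12.99 CPM at 1 h and 480.3 and 17.2 CPM at 34 days, with at most 48.9 CPM in the 6 other libraries. Il7r, the receptor of interleukin 7, stood at 3.17 and 0 CPM at 1 h and 68.99 and 1.14 CPM at 34 days. Cd4, the coreceptor of helper T cells, stood at 7.73 and 3.51 CPM at 1 h and 53.4 and 3.27 CPM at 34 days. The T cell kinase Lck stood at 0.991 and 0.351 CPM at 1 h and 49.2 and 1.56 CPM at 34 days. PLA_34d replicate 1 held the only high value in each, and it was the highest of 10 libraries in 15 of 16 transcripts of the list.

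The list for stroma and vessels of lymph nodes summed to 429 and 491 CPM at 1 h and 1201 and 476 CPM at 34 days, most of it Clu (385 and 425 against 473 and 421 CPM), which many tissues make and which shares its locus with another symbol, so that its reads are uncertain. Ccl21, the chemokine that draws lymphocytes into nodes, stood at 19.03 and 41.4 CPM at 1 h and 314 and 27.01 CPM at 34 days. Cxcl13, which forms B cell follicles, stood at 4.26 and 1.40 CPM at 1 h and 57.99 and 2.70 CPM at 34 days, and Ccl19, a relative of Ccl21 singled out after its values had been seen, at 0 and 0.351 CPM at 1 h and 23.0 and 0.853 CPM at 34 days. All 3 stood high in PLA_34d replicate 1 only. Class II genes of antigen presentation summed to 329.9 and 318 CPM at 1 h and 1574 and 203 CPM at 34 days, while AP_1h replicate 1 also reached 1085 CPM. Cd74, the invariant chain, stood at 153 and 148 CPM at 1 h and 679.7 and 95.2 CPM at 34 days and the class II alpha chain RT1-Da at 71.8 and 48.1 CPM at 1 h and 272 and 34.5 CPM at 34 days. RT1-Ba stood at 45.1 and 42.3 CPM at 1 h and 225 and 26.01 CPM at 34 days and RT1-Db1 at 34.0 and 36.9 CPM at 1 h and 176 and 22.2 CPM at 34 days. In PLA_34d replicate 2 these 4 lay below both 1 h libraries, so the PLA_34d libraries stood on opposite sides of 1 h. The macrophage list was less apart, with sums of 179.8 and 138 CPM at 1 h and 364 and 108 CPM at 34 days. Csf1r, a growth factor receptor of macrophages, stood at 20.02 and 15.4 CPM at 1 h and 78.5 and 13.6 CPM at 34 days, and the complement genes C1qc (25.8 and 26.3 against 49.9 and 22.03 CPM), C1qa (30.04 and 18.8 against 45.1 and 17.6 CPM) and C1qb (21.3 and 24.2 against 41.1 and 15.1 CPM) overlapped. In the cell division list 5 of 8 members were higher without overlap and 0 lower (12.8% and 14.8% of all members), 3 of the 5 being members through PLA_34d only, and replicate 1 was the highest of 10 libraries in 13 of 17 transcripts with reads. Pcna (39.4 and 31.6 against 33.5 and 27.1 CPM) and Bub1 (6.54 and 3.69 against 7.29 and 4.98 CPM) overlapped, while the replication helicase genes Mcm2 (8.62 and 8.95 against 15.1 and 8.96 CPM) and Mcm6 (1.59 and 1.40 against 10.5 and 2.27 CPM) did not, Mcm2 narrowly. The part of lymph node tissue in the higher members of this comparison was not tested.

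**Figure D4:**
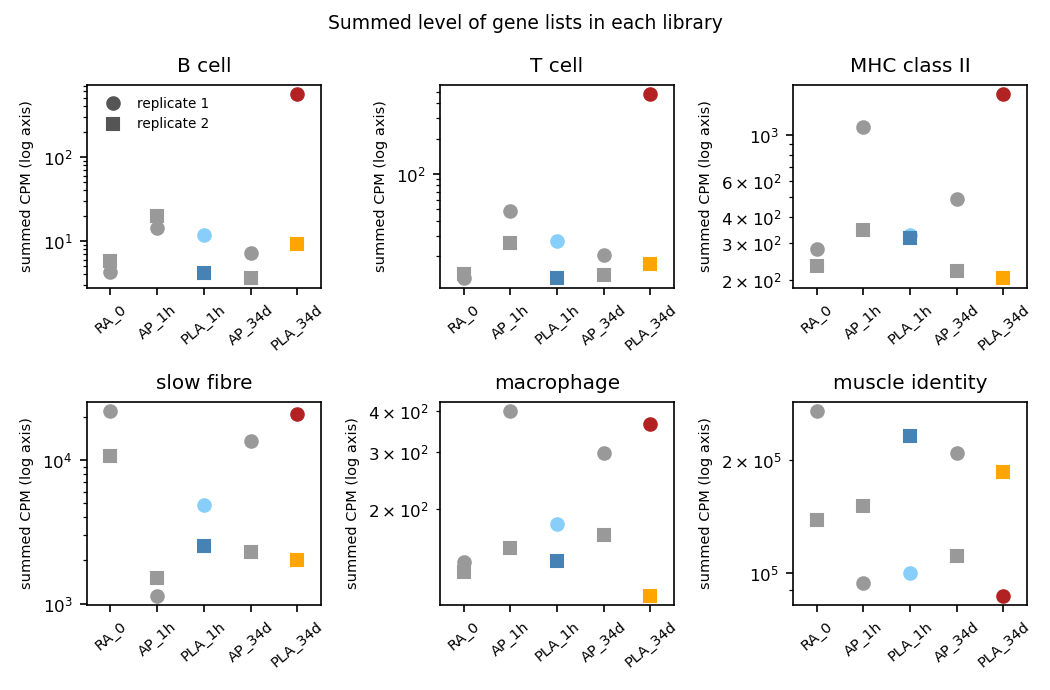
Summed CPM of 6 gene lists on log axes in each of the 10 libraries, by group, with circles for replicate 1 and squares for replicate 2 and the placebo libraries in colour. PLA_34d replicate 1 holds 564 CPM of B cell and 480 CPM of T cell transcripts and stands above all others there, while its slow fibre sum lies in the range of the RA_0 libraries.

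Fibre type genes went opposite ways in the PLA_34d libraries. The slow fibre list summed to 4875 and 2530 CPM at 1 h and 20964 and 2013 CPM at 34 days. Against the PLA_1h mean 12 of its 13 members were at least 2-fold higher in replicate 1, and 5 were at least 2-fold lower in replicate 2, where 9.61% of all members were 2-fold above in replicate 1 and 1.97% 2-fold below in replicate 2. Myh7, slow myosin, stood at 2235 and 579 CPM at 1 h and 11934 and 499 CPM at 34 days, but shares its locus with another symbol and is uncertain. Myl3, a slow light chain, stood at 409 and 627 CPM at 1 h and 2631 and 699.5 CPM at 34 days. The slow troponin Tnnt1 stood at 500.2 and 136 CPM at 1 h and 1736 and 129 CPM at 34 days, and Tnnc1 at 427 and 171 CPM at 1 h and 1359 and 141 CPM at 34 days. PLA_34d replicate 1 was the highest of the 4 libraries in each of them. In RA_0 the list summed to 22073 and 10771 CPM and in AP_34d to 13682 and 2297 CPM, so 1 other library of the 10 reached the level of PLA_34d replicate 1.

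Fast fibre genes stood the other way. The median of that list was -1.24 in replicate 1 and 0.20 in replicate 2. The fast myosin Myh4 stood at 18648 and 58100 CPM at 1 h and 13292 and 42884 CPM at 34 days, and Myh1 at 34886 and 38430 CPM at 1 h and 21230 and 29350 CPM at 34 days. The fast light chain Mylpf stood at 10274 and 17554 CPM at 1 h and 5336 and 17334 CPM at 34 days and fast troponin Tnnt3 at 9757 and 18341 CPM at 1 h and 5364 and 15418 CPM at 34 days. PLA_34d replicate 1 was the lowest of the 4 libraries in each. Mitochondrial genes of oxidative phosphorylation had medians of -0.81 in replicate 1 and 0.34 in replicate 2, and collagens 0.35 and -0.51. Tendon genes had 0.68 and -1.29, over 6 transcripts. For all of these lists the mean of the PLA_34d libraries hides a difference between them.

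**Figure D5:**
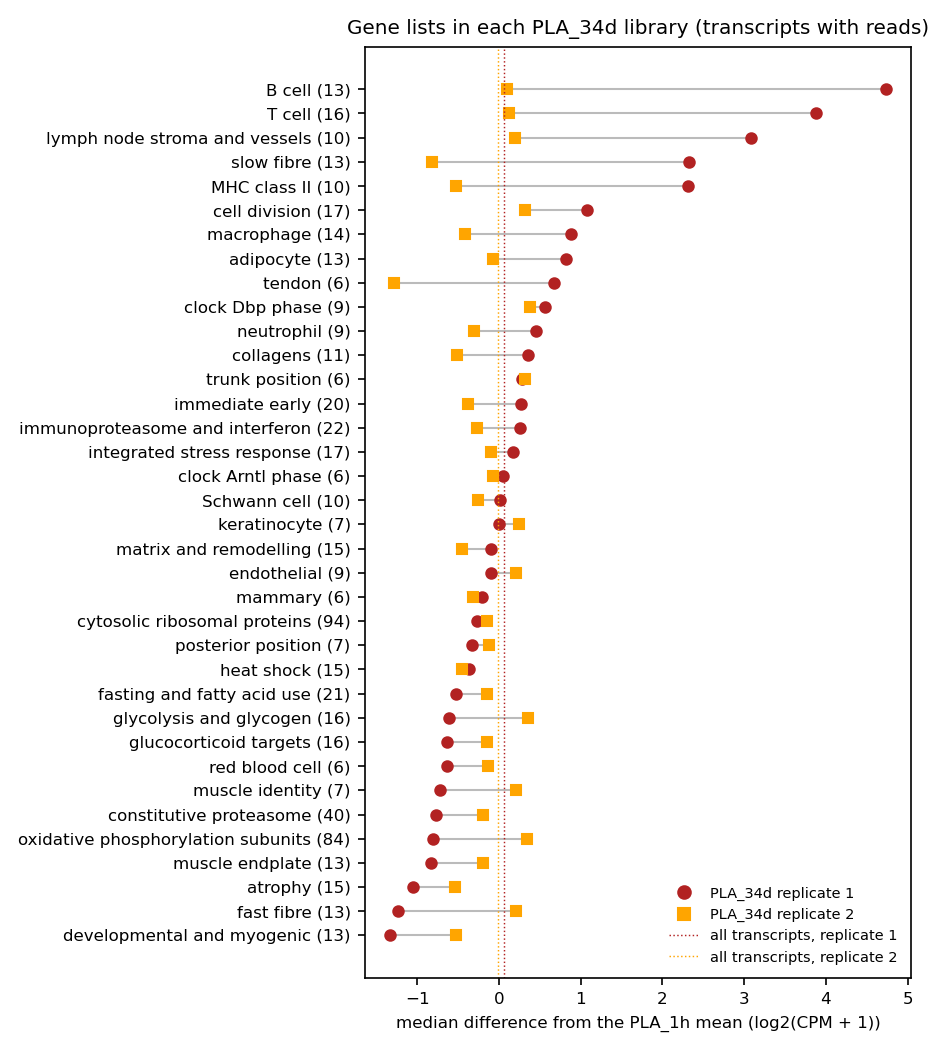
Median difference of each gene list from the PLA_1h mean on log2(CPM + 1), with PLA_34d replicate 1 as red circles and replicate 2 as orange squares, the number of transcripts with reads in brackets, and dotted lines for all transcripts. The B cell list has 4.73 against 0.10 and the slow fibre list 2.33 against -0.82, while developmental, atrophy and endplate lists lie below 0 in both libraries.

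The other placebo libraries stood 4-fold apart in few genes. At least 4-fold above the other 3 were 11 members in PLA_1h replicate 1, 1 in PLA_1h replicate 2 and 1 in PLA_34d replicate 2. At 2-fold, PLA_1h replicate 2 lay below the other 3 in 127 members and above them in 20, PLA_1h replicate 1 below in 8 and above in 69, and PLA_34d replicate 2 below in 19 and above in 8. In PLA_1h replicate 1 these were led by Dclk1, Chrng, Ctxn3, Chrnd, Aif1l, Arl4d and Klk1c7. Ctxn3 stood at 118 and 14.6 CPM at 1 h and 2.92 and 10.2 CPM at 34 days, and Aif1l, an actin binding protein, at 55.2 and 5.09 CPM at 1 h and 8.19 and 4.12 CPM at 34 days. Arl4d, an Arf-like GTPase, stood at 24.4 and 2.81 CPM at 1 h and 3.70 and 2.99 CPM at 34 days, and the kallikrein Klk1c7 at 80.4 and 14.4 CPM at 1 h and 0.785 and 3.55 CPM at 34 days. These genes, like Chrng and Chrnd, were chosen for standing farthest above the other 3 in PLA_1h replicate 1, so no link among them is read from this. In PLA_1h replicate 2 the farthest above were Pla2g2a, a secreted phospholipase (16.7 and 74.6 against 11.1 and 11.1 CPM), and the ribosomal RNA precursor Rn45s, whose 2 copies stood at 5638 and 11785 CPM against at most 1460 and 3713 CPM in the other 3. Lpin1 (48.97 and 152 against 38.9 and 43.4 CPM), Smad3 (uncertain for the same reason as Clu, 53.04 and 146 against 52.7 and 41.5 CPM), Tle1 (18.9 and 61.95 against 22.8 and 16.9 CPM) and Sbk2 (6.44 and 17.7 against 6.28 and 5.69 CPM) came next.

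In PLA_34d replicate 2, Anxa8, an annexin, stood at 0.892 and 1.75 CPM at 1 h and 1.35 and 12.4 CPM at 34 days. Fbp2, the muscle form of fructose bisphosphatase, stood at 55.9 and 76.9 CPM at 1 h and 62.5 and 244 CPM at 34 days. Gadd45g, a stress response gene, stood at 78.6 and 116 CPM at 1 h and 49.8 and 291 CPM at 34 days. Only the last library was high in each. Iqcg (1.98 and 1.75 against 1.57 and 6.97 CPM), Neu2 (15.6 and 29.5 against 22.1 and 65.7 CPM), Crhr2 (14.3 and 8.77 against 26.4 and 58.4 CPM), Slc25a25 (54.8 and 48.96 against 50.4 and 117 CPM) and RGD1307461 (75.4 and 61.6 against 58.2 and 159 CPM) were next.

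The acupuncture groups share no library with the placebo difference, though their spread is part of the fit that gave its p. They allow the difference between the times to be set beside that under another therapy. Whether the placebo difference was another than the acupuncture difference was tested in the same limma fit, which called 0 members (smallest adjusted p 0.514). Without adjustment 392 (3.93%) had a p under 0.05. By limma-voom and by edgeR 0 were called, by DESeq2 19, and by limma 83 when PLA_34d replicate 2 was left out. Dgkz gave the smallest p. Its levels were 82.4 and 77.7 CPM in AP_1h and 38.9 and 23.9 CPM in AP_34d, a log2 difference of -1.36 where placebo had 1.53, so the directions were opposite. Ucp3 stood at 858 and 1008 CPM in AP_1h and 1177 and 528 CPM in AP_34d, with overlap between the times.

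Members lower by the study's rule stood lower under acupuncture as well more often than members at large. Of the 78 lower members 57 (73.1%) were lower at AP_34d than at AP_1h, where 48.8% of all members lower under placebo were, and their median acupuncture difference was -0.48. Of the 132 higher members 45 (34.1%) were higher under acupuncture too, where 50.9% of all higher members were, and their median there was -0.25. No test was made of these shares, since genes are not independent and the spread of the acupuncture libraries entered the choice of these members. Chrna1 stood at 128 and 62.1 CPM in AP_1h and 23.05 and 21.2 CPM in AP_34d. Prima1 stood at 406 and 129 CPM in AP_1h and 17.2 and 80.5 CPM in AP_34d. In Chrna1 both acupuncture libraries at 1 h lay above both at 34 days, and the same held for Prima1. Of the 10 named as lower 8 were lower under acupuncture too, while Map1a and Prrt4 were higher there. Map1a stood at 93.0 and 108 CPM in AP_1h and 148 and 158 CPM in AP_34d. Prrt4 stood at 1.08 and 3.08 CPM in AP_1h and 4.10 and 4.48 CPM in AP_34d.

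The untreated RA_0 libraries, whose levels enter neither difference but whose spread is part of the fit that chose these members, stood nearer to 34 days than to 1 h in the lower members. This was so for 61 of the 78 (78.2%) and for 10 of the 10 named as lower, against 41.0% of all members. For the 132 higher members it was so for 25 (18.9%), so that there RA_0 mostly stood nearer to PLA_1h. Nearness was taken from the same PLA_1h and PLA_34d means whose gap chose these members. Where 1 library of a group is extreme, part of these shares is built in, so no support is read from them. Ucp3 stood at 36.3 and 103 CPM in RA_0, Chrna1 at 18.4 and 22.4 CPM, Prima1 at 18.1 and 20.9 CPM and Dclk1 at 2.62 and 10.1 CPM. All of these lie below both PLA_1h libraries, though not all within the range of the 34 day placebo libraries. Dgkz stood at 91.1 and 89.3 CPM in RA_0, between the placebo times and nearer to 34 days.

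A panel of 8 genes was taken from other samples of the study. The study measured ADORA2A, ADORA3, ADA and S100A8/A9 as proteins in blood serum, and Fos, Wnt5b and Gjb2 as RNA in cultured synovial cells. Here their RNA in muscle tissue is given, so the values are not set against the study's. Of the 8 genes 6 were members, 2 of them lower and 0 higher without overlap (14.8% and 12.8% of all members). S100a9, a calcium binding protein of neutrophils, stood at 6.74 and 11.4 CPM at 1 h and 0.561 and 1.71 CPM at 34 days, and its partner S100a8 at 2.97 and 3.69 CPM at 1 h and 0.224 and 0.569 CPM at 34 days. Both became members through PLA_1h only, where they stand high. They met the study's rule, with log2 differences of -2.25 ± 0.63 and -1.64 ± 0.61 (SE), and limma's adjusted p was 0.999 for each. Fos, an immediate early gene, stood at 39.95 and 9.83 CPM at 1 h and 44.4 and 8.10 CPM at 34 days. Its replicates differed by more than its groups. The adenosine receptor Adora2a stood at 7.34 and 10.7 CPM at 1 h and 6.84 and 7.53 CPM at 34 days, Ada, which breaks adenosine down, at 6.64 and 4.04 CPM at 1 h and 6.51 and 3.13 CPM at 34 days, and the gap junction gene Gjb2 at 1.39 and 1.05 CPM at 1 h and 1.57 and 0.853 CPM at 34 days. The groups overlapped in all 4 of these. Wnt5b and Adora3 did not reach the minimum. No other neutrophil gene of the list was a member, and the granule genes Mpo, Ngp and Elane stood at no more than 0.561 CPM in any placebo library. The 9 transcripts of the neutrophil list with reads had a median of 0.15, with 0.46 in PLA_34d replicate 1 and -0.30 in replicate 2. S100a8 and S100a9 therefore do not stand for the list.

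The study's 7 gene sets held 35 to 405 members each, and limma called 0 in every set. Early mechanical response (Mec.E.) had a median log2 difference of 0.07, early healing (Heal.E.) 0.13, the wide and the wound-related set of epithelial to mesenchymal transition 0.12 and -0.04, and the gene ontology terms for wound healing, inflammatory response and response to wounding 0.07, 0.09 and 0.06. All transcripts with reads had 0.03. In the inflammatory set the median was 0.30 in PLA_34d replicate 1 and -0.11 in replicate 2, and the wide transition set likewise had 0.27 and -0.07.

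Markers of further cell types and functions are given by their sums and medians. Milk and mammary genes summed to 2.70 to 6.94 CPM and keratinocyte genes to 2.87 to 7.53 CPM in the placebo libraries. Fat cell genes summed to 6153 and 5914 CPM at 1 h and 7715 and 4078 CPM at 34 days, with 2 of 9 members higher and 0 lower without overlap (12.8% and 14.8% of all members). Their median was 0.82 in PLA_34d replicate 1 and -0.07 in replicate 2. At least 2-fold above the PLA_1h mean were 5 of the 9 in replicate 1 (9.61% of all members) and 0 in replicate 2 (0.802%). Endothelial genes had 3 of 9 members higher and 0 lower, against the same shares. Their median of 0.05 turned to -0.02 with quantile normalization. Schwann cell, immediate early, glycolysis and positional lists had medians between -0.15 and 0.30, and with the 20 most abundant transcripts left out of the totals the signs of the Schwann cell, immediate early and glycolysis medians turned. The PLA_34d libraries lay on opposite sides of 1 h for glycolysis (-0.62 in replicate 1 and 0.36 in replicate 2). For immediate early genes they did so the other way (0.27 and -0.38).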

How the data were processed

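RNA-seq reads of the 10 libraries were trimmed with cutadapt 1.2.1 after CASAVA 1.8.2, aligned to rn4 with Bowtie2 2.1.0 and counted per transcript with HTSeq 0.5.4p3 (intersection-nonempty). The strand setting is not given in the sources used here, so reads of overlapping genes cannot be told apart, which touches 757 members. The authors deposited a signal per transcript, the read counts scaled by library size and TMM factor in edgeR 3.4.2 (called CPM here, though the columns do not sum to a fixed total). All values came out as whole reads within 0.01 reads (100% in every library). limma 3.58.1 in R 4.3.3 with a mean trend was fitted to log2(CPM + 1), 1 mean per group over all 10 libraries (5 residual and 5.14 prior degrees of freedom), on 10259 transcripts with 1 CPM in both libraries of any group. All adjusted p were taken over these. Fold changes on this scale understate those of low genes. limma-voom, edgeR 4.0.16 and DESeq2 1.42.0 were run on the recovered reads. Data were also simulated for this comparison, with 1 mean per group, so that no library was set apart as PLA_34d replicate 1 is. There limma recovered 50.5% of 200 transcripts changed 4-fold (10101 run) and 94.5% of 200 changed 16-fold (10097 run). Of the unchanged transcripts, 340 and 332 had an unadjusted p under 0.05 and a 2-fold difference, without the 1 CPM condition of the study's rule. These shares do not carry over to the real libraries.

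The members and all gene lists were chosen with earlier results of these data known, so no support is read from the counts of any list. Named were, per direction, the 10 members with the smallest p by the study's rule and no overlap, the up to 8 transcripts farthest above the other 3 placebo libraries in each library, up to 4 members per list with the highest mean, and the study's panel. Locations are in rn4, and promoters are from RefSeq (GRCr8), with all 7 genes found. Figures were drawn in Python 3.11.15 with matplotlib 3.10.9. Some items are not reported here.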

Additional observations from a re-analysis of the deposited data

How the results depend on the processing

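Between the times limma called 0 members under every alternative other than DESeq2, which called 31, and leaving out single libraries, which gave 0 to 143, the higher value without PLA_34d replicate 2. DESeq2 and that fit shared 21 calls. The difference between placebo and acupuncture gave 0 calls likewise, except 19 by DESeq2 and 0 to 83 with single libraries left out. By the study's rule 210 members became 108 with a pseudocount of 4, 122 with a mean of at least 5 CPM, 382 with edgeR and 421 with DESeq2, and 95 (without PLA_34d replicate 1) to 874 (without PLA_34d replicate 2) with single libraries left out, among them 132 without PLA_1h replicate 2 and 273 without PLA_1h replicate 1. The cause was not tested. Of the 210 members, 62.9% stood higher, against 70.0% with the 20 most abundant transcripts left out of the library totals, which moved the median of all members to 0.11, and 46.9% of 177 when the compared groups were fitted alone. The other alternatives kept each count within 1.5 times.

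The log2 differences of 3 panel genes near 0 turned sign. Gjb2 had 0.00715 with edgeR, 0.0603 with the 20 most abundant left out and -0.26 to 0.22 with single libraries left out. Fos had 0.0933 with edgeR, 0.0820 with DESeq2, 0.0727 with the 20 most abundant left out and -1.21 to 1.11 with single libraries left out, and Ada -0.59 to 0.27. All 20 members named as higher or lower kept their direction. They were chosen without overlap between the groups, so leaving out a library could not turn them.

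The tissue was taken when the rats were killed, so libraries of different times come from different rats and the replicate numbers cannot pair them by animal. Libraries with the same number did not deviate together in every pair of groups (r from -0.46 to 0.45 over transcripts, the highest for PLA_1h with PLA_34d). The numbers are not taken to pair the libraries in any other way. With the replicate number as a block limma called 0 members in both tests, and 233 met the study's rule, 197 of them among the 210. With 2 libraries a group, differences below the spread between replicates could not be detected.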
